A study of Mus musculus with 6 samples.

Results

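The axon guidance module comprised 69 of the 55573 genes in the count table: the Eph receptors and ephrins, the semaphorins, plexins and neuropilins, the Slit ligands and Robo receptors, the Unc5 netrin receptors, and Dcc, Neo1, Rtn4r, Lingo1, Ptprs and Pirb. Members were taken by gene symbol, and the module was chosen with earlier results of these data known. The RNA came from mouse cells sorted as retinal ganglion cells (RGCs), which send the axons of the optic nerve. All animals were C57BL/6 mice with floxed Myh9 and Myh10, which encode nonmuscle myosin II heavy chains. Their eyes had received AAV2 carrying GFP (3 libraries, labelled WT) or Cre recombinase (3 libraries, labelled dKO) 2 weeks earlier, so the WT libraries are floxed and virus-injected too. Each library pooled 3 retinas from 3 mice. Neither the vectors' promoter nor the age of the mice is given in the sources used here.

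Guidance cues are secreted or membrane-bound ligands that steer growing axons by attraction or repulsion. Their receptors act on the growth cone cytoskeleton, partly through RhoA and its kinase, which activate nonmuscle myosin II. In the visual system ephrin gradients order the retinal map, ephrin-B2 and EphB1 sort axons at the optic chiasm, and Slits acting on Robo receptors keep RGC axons on course. Receptors for Nogo and for chondroitin sulfate proteoglycans are known for limiting the regrowth of injured axons.

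Some facts of these libraries touch every value. Total counts were 4569880 to 6146226, but counts outside a single ribosomal RNA row (here non-rRNA counts) were 346037 to 576060 in 5 libraries and 1636581 in dKO replicate 3. Myh9 went from 63.7 ± 3.88 to 62.2 ± 4.09 CPM (SD, n = 3 each; edgeR adjusted p = 0.908) and Myh10 from 18.6 ± 2.06 to 17.9 ± 3.36 CPM (0.735), so neither was detectably lower in the libraries labelled dKO. These counts cover whole genes and do not check the deletion. Of 14 RGC markers only 3 had enough counts to test, and several were nearly absent. Pou4f2 had 0 counts in every WT library and 0, 2 and 5 in dKO replicates 1 to 3, and Isl2 had 1 count in all. The 14 RGC markers summed to 0.0172% to 0.0213% of non-rRNA counts in WT and 0.0278% to 0.0294% in dKO. Of 3 tested 1, Nefl, rose, from 2.22 ± 0.712 to 7.11 ± 0.578 CPM (SD, n = 3 each; edgeR adjusted p = 3.95e-05). Gap43 went from 2.57 ± 0.909 to 4.31 ± 0.908 CPM and Thy1 from 10.6 ± 0.356 to 10.3 ± 1.12 CPM (edgeR adjusted p = 0.120 and 0.911), and neither was called. Müller glia and astrocyte markers took 3.18% to 3.29% and 3.29% to 3.58%, with 1 of 14 tested, Gfap, rising. Rod markers took 0.0841% to 0.0943% and 0.159% to 0.198%, with 6 of 10 tested rising. Bipolar cell markers took 0.194% to 0.200% in WT and 0.142% to 0.152% in dKO, with 4 of 10 tested falling. Amacrine and horizontal cell markers took 0.00173% to 0.00300% and 0.00587% to 0.0108%, and the 1 tested, Slc6a9, rose. Cone markers took 0.0138% to 0.0156% and 0.00648% to 0.0106%, and of 2 tested 1, Gnat2, fell. Oligodendrocyte markers took 0.0173% to 0.0216% and 0.0248% to 0.0265%, with 0 of 2 tested called. In bulk RNA, fewer cells of a type and less RNA per cell cannot be told apart. What the shifts in these markers contribute to the values of the guidance genes was not tested.

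Of the axon guidance genes, 1, Slit2, passed the test between groups. CPM denotes counts divided by the TMM-scaled library size in 1e6 units, a size that includes the ribosomal RNA row. Of the 69 members, 56 had a count in all 6 libraries and 42 passed the filter on low counts and were tested. A gene was called at a Benjamini-Hochberg adjusted p under 0.05 over all 8444 genes tested (edgeR quasi-likelihood test). In the libraries labelled dKO, 1 member was called higher, where 0.734% of all genes tested were, and 0 were called lower, where 1.18% of all genes were (1.92% in either direction). At an unadjusted p under 0.05, 2 members were higher (4.76% of those tested, against 5.66% of all genes) and 8 were lower (19.0%, against 6.88%). The groups had no overlap for 3 higher members (8.66% of all genes) and for 7 lower members (16.7% of the members, against 8.31% of all genes). DESeq2 called none of them. The median log2 fold change was -0.086 over the 42 members and -0.00067 over all genes, with 16 members positive and 26 negative. Without dKO replicate 3, the deep library, the split was 20 positive and 22 negative and the median -0.041. The median was -0.14 without WT replicate 3. These counts describe the members that passed the filter. Pirb, Ephb3 and Robo1 passed it in dKO libraries alone. Pirb is counted among the higher members at an unadjusted p under 0.05 and among those without overlap, where it adds no support.

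Per length, the highest levels belonged to receptors. Dividing CPM by the kilobases of annotated exon, Neo1, a receptor for netrins and repulsive guidance molecules, was highest at 6.15 ± 0.122 in WT against 5.78 ± 0.558 in dKO (SD, n = 3 each). It was followed by Plxnb2, a plexin that binds class 4 semaphorins, at 5.18 ± 0.508 in WT against 4.82 ± 0.182 in dKO. Ptprs, a receptor tyrosine phosphatase that binds chondroitin sulfate proteoglycans, came next at 3.32 ± 0.285 in WT against 3.35 ± 0.194 in dKO. Each of the 3 was above its follower in 6 of 6 libraries. Plxnb1 and Epha4 were not separated, with Plxnb1 higher in 4 of 6 libraries. Sema5a was the highest ligand at 2.02 ± 0.235 in WT against 1.65 ± 0.213 in dKO and stood below Epha4 in all 6. From Sema5a down to the ephrin Efnb1, neighbours in the order exchanged places between libraries. Neo1, Plxnb2 and Ptprs held 27.6% of the summed level per kilobase of all members, and the 10 highest members 51.8%.

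**Figure D1:**
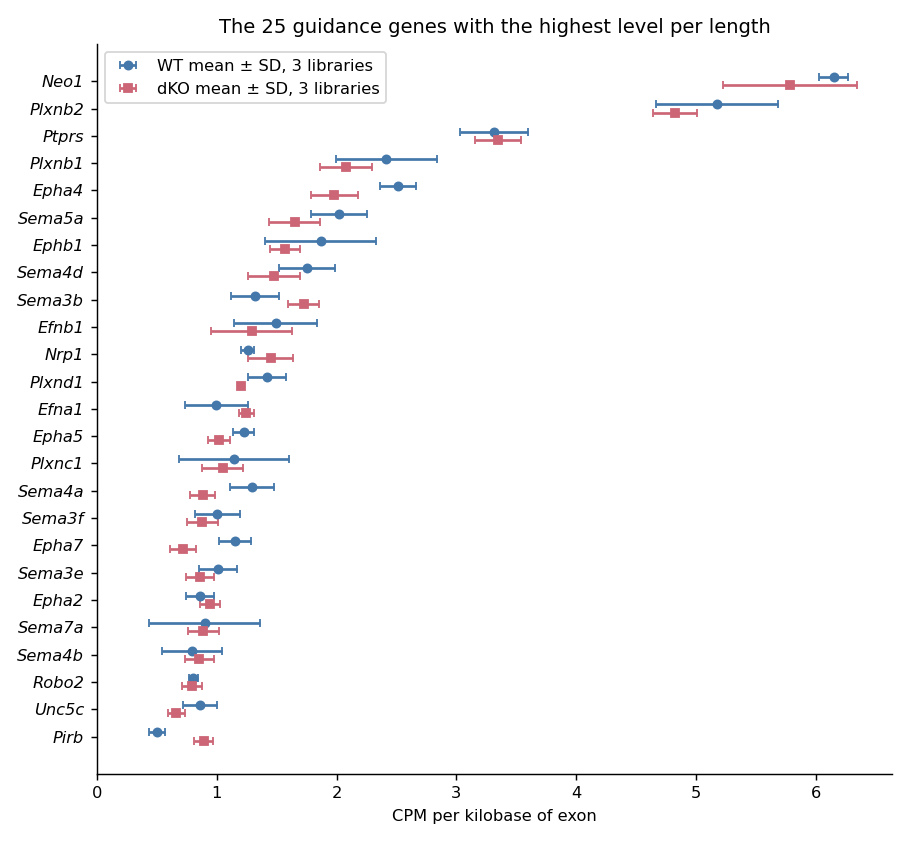
Level of the 25 highest axon guidance genes in CPM per kilobase of exon, as mean and SD over the 3 WT libraries (circles) and the 3 dKO libraries (squares). Neo1, Plxnb2 and Ptprs stand above the other members in both groups.

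Levels of the most abundant receptors were close between groups, and their intervals were narrow. Neo1 stood at 53.98, 54.4 and 52.4 CPM across WT replicates 1 to 3, against 55.2, 45.5 and 50.5 across the dKO replicates, and the groups overlapped. Its log2 fold change was -0.082 ± 0.099 (SE; edgeR adjusted p = 0.801), with a 95% interval of the fold change of 0.824 to 1.08. Ptprs was at 52.5, 51.9 and 44.8 CPM across WT replicates 1 to 3, against 52.7, 50.8 and 47.03 across the dKO replicates, again overlapping, with an interval of 0.872 to 1.15 around a log2 fold change of 0.0019 ± 0.10 (SE; edgeR adjusted p = 0.998). Plxnb2 went from 39.96 ± 3.92 to 37.2 ± 1.40 CPM (SD, n = 3 each), an interval of 0.807 to 1.08 (edgeR adjusted p = 0.768). Of the 42 tested members, the 95% interval lay within a 1.5-fold change either way for 15 and within a 2-fold change for 35.

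**Figure D2:**
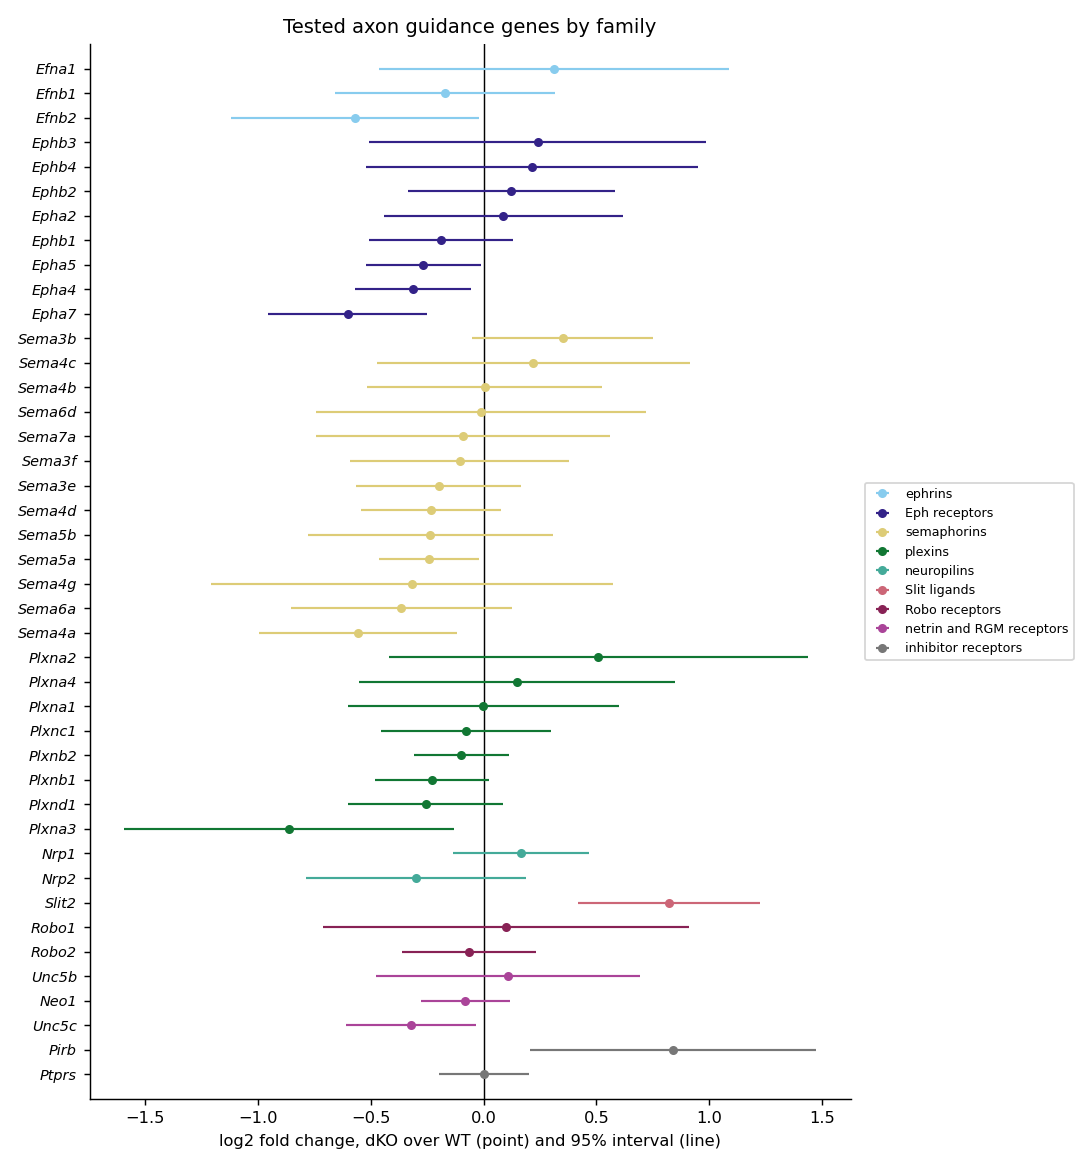
Log2 fold change, dKO over WT, of the 42 tested guidance genes with 95% intervals from the edgeR fit, grouped by family. Slit2 lies at 0.82 and is the only gene called over all genes; Epha7 lies at -0.60.

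Ephrins and Eph receptors form a ligand and receptor system that signals on contact between membranes. None of the 8 tested Eph receptors or 3 tested ephrins was called. At an unadjusted p under 0.05, 3 Eph receptors and 1 ephrin were lower and 0 were higher. Of all genes tested, 6.88% were lower and 5.66% higher at that p. The log2 fold change was positive for 4 and negative for 4 of the 8 Eph receptors. Epha7, an EphA receptor for ephrin-A ligands (ENSMUSG00000028289, chromosome 4, 28813131 to 28967499 in GRCm38), was at 10.6, 10.7 and 12.9 CPM across WT replicates 1 to 3, against 6.28, 6.74 and 8.29 across the dKO replicates. Every dKO library lay below every WT library. Its log2 fold change of -0.60 ± 0.18 (SE; edgeR adjusted p = 0.0508) missed the threshold narrowly. Of 14 alternatives it passed in 4: with RLE scaling (edgeR adjusted p = 0.0491), with a filter of at least 1 CPM in 3 libraries (0.0432), with the replicate number as a block (0.0237) and without dKO replicate 3 (-0.81, 0.0369). In the other 10 its adjusted p was 0.0548 to 0.483, among them limma-voom (0.0666), no low-count filter (0.132), the fit without WT replicate 3 (0.268) and DESeq2 (0.483).

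Epha4, a receptor that binds ephrins of both classes, was at 20.6, 18.9 and 21.3 CPM across WT replicates 1 to 3, against 14.3, 16.1 and 17.4 across the dKO replicates, without overlap. Epha5, which marks the temporal retina in development, was at 22.1, 20.1 and 19.2 CPM across WT replicates 1 to 3, against 18.7, 15.6 and 16.9 across the dKO replicates, also without overlap. The log2 fold changes were -0.31 ± 0.13 for Epha4 and -0.27 ± 0.13 for Epha5 (SE; edgeR adjusted p = 0.252 and 0.362), so neither passed over all genes. Ephb1, which directs uncrossed RGC axons at the chiasm, was at 13.01, 16.3 and 9.87 CPM across WT replicates 1 to 3, against 11.04, 10.1 and 11.9 across the dKO replicates. Its WT values spanned all of its dKO values (-0.19 ± 0.16, SE; edgeR adjusted p = 0.706). The other tested receptors had positive values, Ephb3 0.24 ± 0.37, Ephb4 0.21 ± 0.37, Ephb2 0.12 ± 0.23 and Epha2 0.087 ± 0.27, with overlapping groups.

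Efnb2, the ephrin of the chiasm midline and of arterial endothelium, was at 5.42, 5.34 and 3.29 CPM across WT replicates 1 to 3, against 3.24, 3.13 and 3.11 across the dKO replicates. WT replicate 3 lay just above the 3 dKO libraries and the other WT libraries well above them. The log2 fold change was -0.57 ± 0.28 (SE; edgeR adjusted p = 0.370). Endothelial markers took 0.0734% to 0.0893% of non-rRNA counts in WT and 0.0715% to 0.0779% in dKO, and 0 of 4 tested were called. Most of that sum was Flt1, which went from 73.3 ± 7.78 to 68.2 ± 4.32 CPM. Of the 11 markers, 3 were lower in every dKO library than in any WT library: Cldn5 went from 2.09 ± 0.450 to 0.569 ± 0.430 CPM, Cdh5 from 1.23 ± 0.693 to 0.225 ± 0.242 CPM and Slco1a4 from 3.27 ± 0.495 to 1.44 ± 0.215 CPM (SD, n = 3 each; log2 fold change of Slco1a4 -1.22, edgeR adjusted p = 0.0750). Esam was higher in every dKO library and went from 2.56 ± 0.203 to 3.30 ± 0.397 CPM, and Cdh5, Tek and Erg had at most 9 counts in any library. Their part in the Efnb2 value was not tested. Efnb1, the most abundant ephrin per length, went from 5.15 ± 1.19 to 4.46 ± 1.17 CPM (-0.17 ± 0.25, SE; edgeR adjusted p = 0.839), and Efna1 from 1.82 ± 0.486 to 2.28 ± 0.115 CPM (0.31 ± 0.39; 0.813; SD, n = 3 each). Both overlapped between groups. Summed per kilobase, Eph receptors were at 10.00 ± 0.363 in WT and 8.997 ± 0.138 in dKO, against 3.93 ± 0.520 and 4.13 ± 0.553 for ephrins (SD, n = 3 each).

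**Figure D3:**
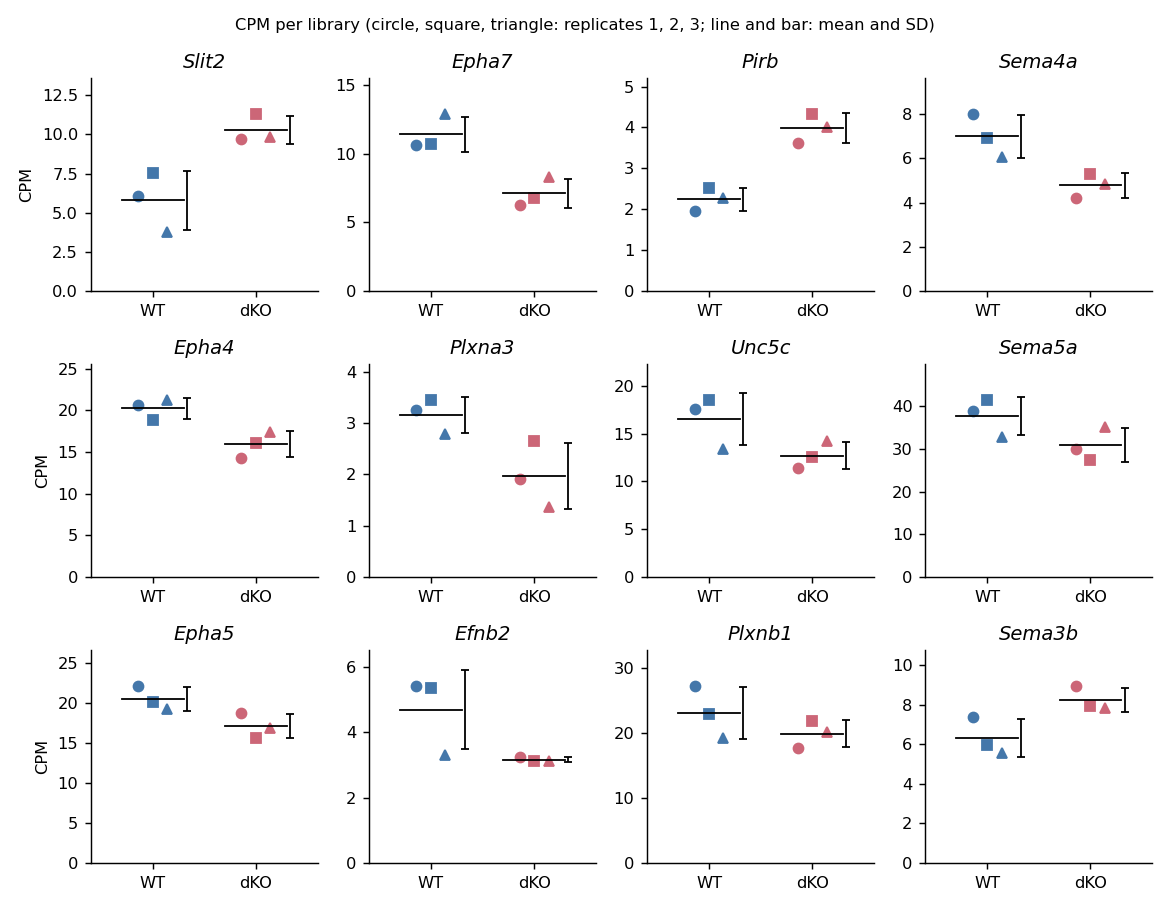
CPM in each library (symbols for replicates 1 to 3) with mean and SD for the 12 tested guidance genes with the smallest p. Slit2, Pirb and Sema3b are higher in all dKO than in all WT libraries. Pirb passed the low-count filter in dKO libraries alone. Epha7, Sema4a, Epha4, Plxna3, Epha5 and Efnb2 are lower in all dKO than in all WT libraries, and Unc5c, Sema5a and Plxnb1 overlap.

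Semaphorins signal through plexins, and the secreted class 3 members also need neuropilins. Of 13 semaphorins, 8 plexins and 2 neuropilins tested, none was called. At an unadjusted p under 0.05, 2 semaphorins and 1 plexin were lower, where 6.88% of all genes tested were. Sema4a, a membrane semaphorin required for photoreceptor survival, was at 8.02, 6.91 and 6.07 CPM across WT replicates 1 to 3, against 4.19, 5.30 and 4.86 across the dKO replicates. All dKO values were below all WT values, with a log2 fold change of -0.56 ± 0.22 (SE; edgeR adjusted p = 0.225). Sema5a, a membrane semaphorin that inhibits RGC axon growth, was at 38.8, 41.5 and 32.9 CPM across WT replicates 1 to 3, against 29.9, 27.4 and 35.2 across the dKO replicates. Its dKO replicate 3 lay above WT replicate 3, and the change was -0.24 ± 0.11 (SE; edgeR adjusted p = 0.335). Sema3b, a secreted ligand, had the smallest p among the semaphorins with positive values, at 7.37, 5.97 and 5.57 CPM across WT replicates 1 to 3, against 8.95, 7.94 and 7.84 across the dKO replicates, without overlap (0.35 ± 0.20, SE; edgeR adjusted p = 0.489).

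Sema4d, the classic ligand of plexin-B1, went from 13.4 ± 1.79 to 11.3 ± 1.66 CPM and Sema6a, a ligand of plexins A2 and A4, from 5.34 ± 0.926 to 4.20 ± 0.126 CPM (SD, n = 3 each). Neither passed (-0.23 ± 0.16 and -0.37 ± 0.25, SE; edgeR adjusted p = 0.582 and 0.587), and both overlapped. The other 8 tested semaphorins also overlapped between groups. Their log2 fold changes were 0.22 for Sema4c, 0.0040 for Sema4b, -0.014 for Sema6d, -0.090 for Sema7a, -0.11 for Sema3f, -0.20 for Sema3e, -0.24 for Sema5b and -0.32 for Sema4g.

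Plxna3, a partner of neuropilins in the class 3 receptor, was at 3.25, 3.46 and 2.78 CPM across WT replicates 1 to 3, against 1.90, 2.65 and 1.36 across the dKO replicates, which are 15, 11 and 11 counts across WT replicates 1 to 3, against 10, 11 and 21 across the dKO replicates as counts. The groups did not overlap, and the log2 fold change was -0.86 ± 0.37 (SE; edgeR adjusted p = 0.280). Plxnb1 was at 27.3, 22.9 and 19.2 CPM across WT replicates 1 to 3, against 17.7, 21.9 and 20.2 across the dKO replicates, with overlap (-0.23 ± 0.13, SE; edgeR adjusted p = 0.460). Plxnd1, the receptor of Sema3e in blood vessels, stayed between 8.68 and 8.91 CPM in dKO and between 9.61 and 11.7 in WT, without overlap and without passing (-0.26 ± 0.17, SE; edgeR adjusted p = 0.587). The other plexins overlapped, with log2 fold changes of 0.51 for Plxna2, 0.15 for Plxna4, -0.0013 for Plxna1 and -0.078 for Plxnc1. Plxna2 had 2 counts each in WT replicates 1 and 2 and 13 in WT replicate 3. The neuropilins, which also bind VEGF, overlapped too: Nrp1 went from 12.3 ± 0.518 to 14.2 ± 1.82 CPM (0.17 ± 0.15, SE; edgeR adjusted p = 0.735) and Nrp2 from 5.93 ± 1.23 to 4.83 ± 1.81 CPM (-0.30 ± 0.24; 0.690; SD, n = 3 each).

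Slit2, a secreted ligand of Robo receptors that repels RGC axons, rose in the libraries labelled dKO. The gene (ENSMUSG00000031558, chromosome 5, 47983138 to 48307733 in GRCm38) had 28, 24 and 15 counts across WT replicates 1 to 3, against 51, 47 and 152 across the dKO replicates. Scaled, this was 6.07, 7.54 and 3.79 CPM across WT replicates 1 to 3, against 9.71, 11.3 and 9.85 across the dKO replicates, and every dKO library lay above every WT library. The mean went from 5.80 ± 1.89 to 10.3 ± 0.889 CPM (SD, n = 3 each), a log2 fold change of 0.82 ± 0.20 (SE; edgeR adjusted p = 0.00979) with a 95% interval of the fold change of 1.34 to 2.34. It was called with limma-voom (adjusted p = 0.0265) but not with DESeq2 (0.244), nor without WT replicate 1 (edgeR adjusted p = 0.0549) or WT replicate 3 (0.181), and it was called without dKO replicate 3 (0.87, 0.0296). Per length it was low, at 0.228 ± 0.0743 in WT against 0.405 ± 0.0350 in dKO CPM per kilobase (SD, n = 3 each). Slit1 had 0, 1 and 0 counts across WT replicates 1 to 3, against 1, 2 and 6 across the dKO replicates and Slit3 had 1, 5 and 3 counts across WT replicates 1 to 3, against 6, 3 and 5 across the dKO replicates, too few to test. Of the receptors, Robo2, the main Robo of RGCs, was at 13.01, 14.1 and 13.9 CPM across WT replicates 1 to 3, against 14.7, 13.96 and 11.9 across the dKO replicates, overlapping (-0.065 ± 0.15, SE; edgeR adjusted p = 0.911; fold interval 0.778 to 1.17). Robo1 changed by 0.10 ± 0.41 (edgeR adjusted p = 0.954), and Robo3 had 1 count, in dKO replicate 2.

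Among netrin receptors, none of 3 tested was called. Unc5c, which mediates repulsion from netrin, was at 17.6, 18.5 and 13.4 CPM across WT replicates 1 to 3, against 11.4, 12.5 and 14.2 across the dKO replicates. The dKO replicate 3 value lay above WT replicate 3, and the log2 fold change was -0.32 ± 0.14 (SE; edgeR adjusted p = 0.317). Unc5b, a netrin receptor of sprouting vessels, went from 3.46 ± 0.555 to 3.48 ± 1.16 CPM (SD, n = 3 each; 0.11 ± 0.29, SE; edgeR adjusted p = 0.927). Dcc, the receptor that guides RGC axons into the optic nerve by netrin-1, was below the filter with 8, 6 and 13 counts across WT replicates 1 to 3, against 8, 8 and 40 across the dKO replicates. Its ratio of summed scaled counts, dKO over WT, was 0.981 (0.609 to 1.61) (95% exact binomial interval, which like every such interval here covers counting error only).

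Of the 4 receptors for growth inhibitors, only Ptprs was abundant. Rtn4r, the Nogo receptor, had 0 counts in all 6 libraries. A count of 0 allows at most 3 counts per group, or 0.255 CPM in WT and 0.121 CPM in dKO. Its co-receptor Lingo1 had 5, 2 and 5 counts across WT replicates 1 to 3, against 5, 2 and 16 across the dKO replicates, a ratio of 0.906 (0.433 to 1.999). Pirb, an inhibitory receptor of myeloid cells that binds MHC class I and also Nogo, was at 1.95, 2.51 and 2.28 CPM across WT replicates 1 to 3, against 3.62, 4.33 and 4.02 across the dKO replicates, or 9, 8 and 9 counts across WT replicates 1 to 3, against 19, 18 and 62 across the dKO replicates. All dKO values were above all WT values, and the log2 fold change of 0.84 ± 0.32 (SE; edgeR adjusted p = 0.200) did not pass over all genes. Pirb passed the low-count filter through the dKO libraries and no WT library, so its separation and fold change add no support. Pirb lies among near-identical Pira genes that can share its reads, so its counts are uncertain. Microglia and macrophage markers took 0.795% to 0.856% of non-rRNA counts in WT and 0.842% to 0.898% in dKO, and 1 of 15 tested, Lyz2, rose. Without overlap, 3 of the 15 were higher in dKO (Lyz2, Trem2 and C1qc) and 1, Ptprc, was lower. Of all genes tested, 8.66% and 8.31% were. Trem2 went from 9.54 ± 0.962 to 14.3 ± 1.17 CPM (SD, n = 3 each; edgeR adjusted p = 0.0513) and Ptprc from 47.5 ± 4.39 to 41.2 ± 0.924 CPM (0.426). The part of these markers in the Pirb value was not tested.

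**Figure D4:**
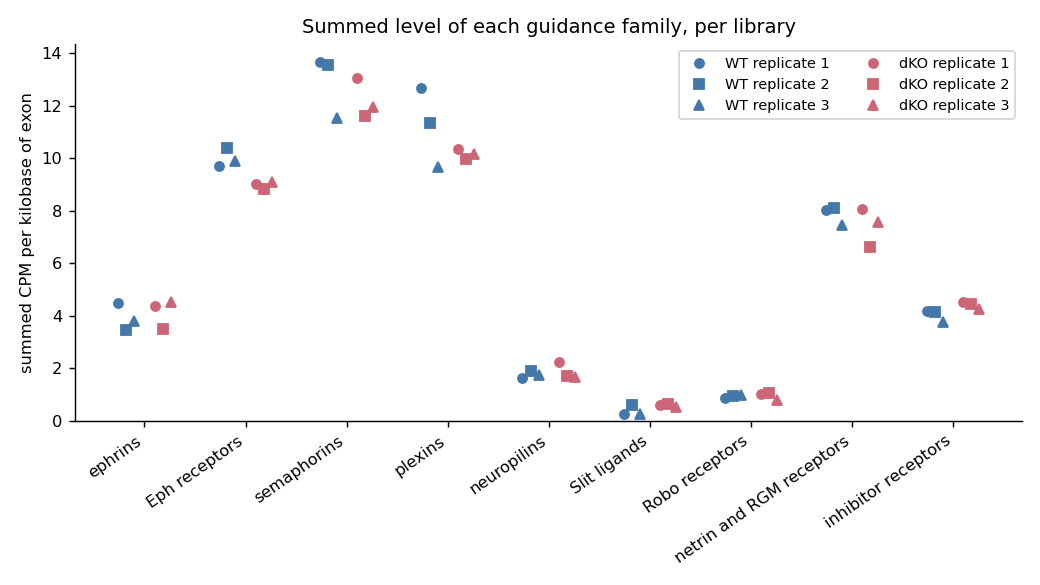
Summed CPM per kilobase of exon of all members of each guidance family in each library (circle, square and triangle for replicates 1, 2 and 3). Semaphorins, plexins and Eph receptors have the highest sums. On this scale the Eph receptor and inhibitor receptor sums do not overlap between groups; as a percentage of counts the inhibitor receptor sums do, and the Slit sums do not.

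Summed over a family, semaphorins, plexins and Eph receptors were the most abundant. Semaphorins summed to 12.9 ± 1.21 CPM per kilobase in WT and 12.2 ± 0.765 in dKO, plexins to 11.2 ± 1.51 and 10.2 ± 0.178, and netrin and RGM receptors to 7.87 ± 0.347 and 7.41 ± 0.733 (SD, n = 3 each). Slits were lowest at 0.386 ± 0.193 and 0.585 ± 0.0712, below their Robo receptors at 0.925 ± 0.0651 and 0.951 ± 0.129. All members together took 0.389% to 0.450% of non-rRNA counts in WT and 0.389% to 0.416% in dKO. Eph receptors were the family whose sum was lower in every dKO library, at 8.85 to 9.11 against 9.70 to 10.4 CPM per kilobase. The largest falls were in Epha4 (2.51 ± 0.154 in WT, 1.98 ± 0.196 in dKO) and Epha7 (1.15 ± 0.131 and 0.719 ± 0.107; SD, n = 3 each). Ephb1 and Epha5 were lower too, while 4 of the 8 tested Eph receptors had positive log2 fold changes. Inhibitor receptors were higher in every dKO library, at 4.26 to 4.53 against 3.76 to 4.17. Pirb, whose counts are uncertain, made up nearly all of that difference, at 0.503 ± 0.0633 in WT against 0.892 ± 0.0802 in dKO CPM per kilobase, beside 3.32 ± 0.285 in WT against 3.35 ± 0.194 in dKO for Ptprs (SD, n = 3 each). As a percentage of non-rRNA counts the inhibitor receptor sums overlapped (0.0433% to 0.0513% in WT, 0.0491% to 0.0523% in dKO), and those of the Slits did not (0.00408% to 0.00867% and 0.00996% to 0.0115%), nor those of the Eph receptors (0.0753% to 0.0792% and 0.0673% to 0.0711%). No test was made on these sums.

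The 27 members below the filter had too few counts for the fit. Efnb3, the ephrin that repels axons at the spinal cord midline, stood out among them with 2, 0 and 0 counts across WT replicates 1 to 3, against 8, 6 and 22 across the dKO replicates. Every dKO library was above every WT library on the CPM scale, and the ratio of summed scaled counts was 8.51 (2.19 to 72.97). When no filter was applied, Efnb3 was called (edgeR adjusted p = 0.0244), but not without WT replicate 2 (0.186), WT replicate 3 (0.242) or dKO replicate 3 (0.135). It was also called at a minimum of 1 CPM in 3 libraries, where CPM was taken on total counts without TMM scaling. Efnb3 passed that filter through the 3 dKO libraries and no WT library, so that call adds no support. The size of its change rests on 2 WT counts, both in WT replicate 1. Unc5a, a netrin receptor, had 2, 0 and 0 counts across WT replicates 1 to 3, against 6, 3 and 8 across the dKO replicates, a ratio of 4.02 (0.954 to 35.9). Its exons overlap by 34 bases those of Hk3 on the opposite strand, and without a stated strand setting reads there cannot be told apart.

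Epha8, an EphA receptor, had 7, 6 and 6 counts across WT replicates 1 to 3, against 20, 10 and 36 across the dKO replicates, a ratio of 1.64 (0.974 to 2.90), and Sema6b, a membrane semaphorin, had 4, 4 and 6 counts across WT replicates 1 to 3, against 15, 7 and 30 across the dKO replicates, a ratio of 1.76 (0.959 to 3.43). Efnb3, Unc5a, Epha8 and Sema6b were the only untested members without overlap, all with dKO higher. The share of all genes below the filter without overlap was not determined, and the summed effective depth of dKO was above that of WT. This count is therefore not read as a result about the members. Unc5a, Epha8 and Sema6b did not pass in the unfiltered fit (edgeR adjusted p = 0.634, 0.657 and 0.696).

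**Figure D5:**
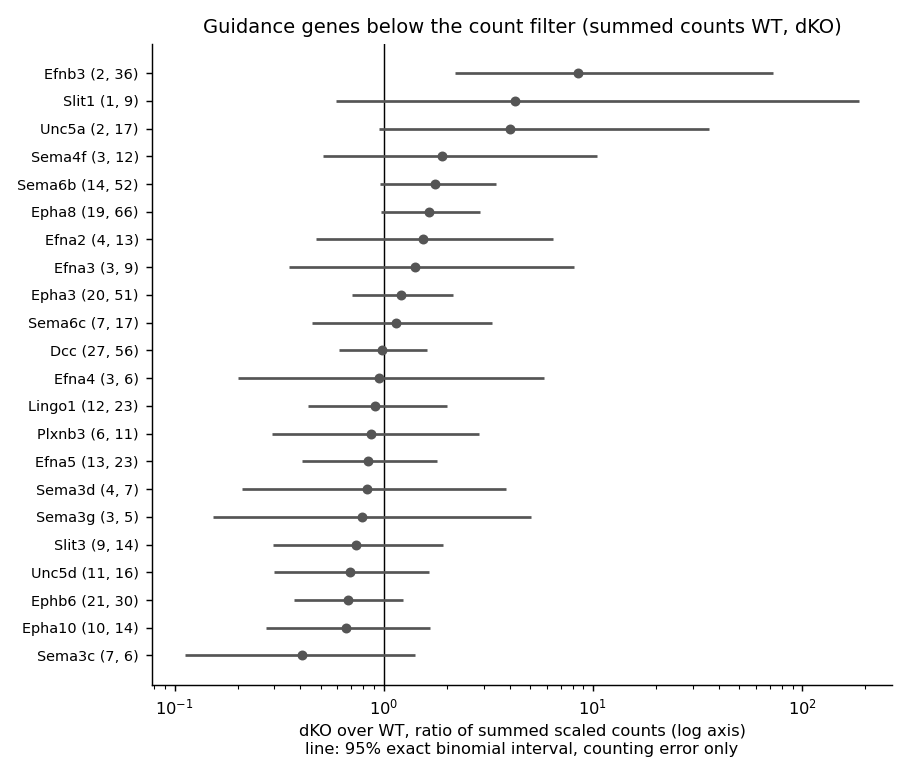
Ratio of summed scaled counts, dKO over WT, on a log axis for the 22 untested guidance genes with a count in both groups, with 95% exact binomial intervals. Only the interval of Efnb3 lies above 1; the numbers beside each name are the summed counts in WT and dKO.

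Sema3a, a secreted repellent, had 0, 0 and 0 counts across WT replicates 1 to 3, against 0, 3 and 9 across the dKO replicates. The lower 95% exact binomial limit of its ratio, dKO over WT, was 1.31, while dKO replicate 1 was at 0 like the WT libraries. Epha6 had 0, 0 and 0 counts across WT replicates 1 to 3, against 2, 0 and 7 across the dKO replicates, and the lower limit of its ratio, 0.933, lay below 1. Most of these counts came from dKO replicate 3, the library with the greatest depth. Epha1 had 2 counts in all, and its exons overlap by 236 bases those of Zyx on the opposite strand. The remaining Eph receptors below the filter had overlapping groups, with ratios of 1.21 (0.706 to 2.14) for Epha3, 0.676 (0.374 to 1.24) for Ephb6 and 0.662 (0.273 to 1.67) for Epha10.

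For the ephrin-A ligands below the filter, summed counts were 4 in WT and 13 in dKO for Efna2, 3 and 9 for Efna3, 3 and 6 for Efna4, and 13 and 23 for Efna5, a main ligand of the retinal map. The summed effective depth of dKO was above that of WT, so these counts give ratios of 0.837 for Efna5 to 1.54 for Efna2. Sema3c (7 and 6), Sema3d (4 and 7), Sema3g (3 and 5), Sema4f (3 and 12), Sema6c (7 and 17), Plxnb3 (6 and 11) and Unc5d (11 and 16) were as sparse, and the intervals of all their ratios include 1. Differences in these genes were not detectable at this depth.

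The other genes of the guidance pathways did not pass the test either. Of 106 such genes in 4 lists, 80 were tested, and 0 were called higher or lower with edgeR, where 1.92% of all genes tested were. DESeq2 called 0 of them, while limma-voom called 1. With edgeR, 7 of the 80 had an unadjusted p under 0.05, 1 of them higher and 6 lower. Of all genes tested 12.5% did, 5.66% higher and 6.88% lower. The median log2 fold change of the 80 was -0.046. Among 6 tested netrins and other ligands, Flrt2, a ligand of Unc5 receptors, had the smallest p (from 13.9 ± 2.90 to 11.4 ± 1.70 CPM; -0.29 ± 0.16, SE; edgeR adjusted p = 0.445), followed by Rgmb, a ligand of Neo1 (0.31 ± 0.33; 0.775). The most abundant per length was Ntn4, a basement membrane netrin, at 11.3 and 11.3 CPM. Among 12 tested other receptors, Boc, a hedgehog co-receptor of uncrossed RGC axons, changed by -0.63 ± 0.29 (0.347), Gas1 by 0.36 ± 0.23 (0.544) and Cdon by 0.16 ± 0.10 (0.580). Kdr, the VEGF receptor that pairs with neuropilin-1, was the most abundant at 161 and 152 CPM (-0.089 ± 0.097; 0.776).

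Of 11 tested growth inhibitors and co-receptors, Lrp1, an endocytic receptor that binds myelin proteins, went from 103 ± 9.28 to 85.1 ± 7.01 CPM (SD, n = 3 each; -0.29 ± 0.096, SE; edgeR adjusted p = 0.117) and was called with limma-voom (adjusted p = 0.0223). Ngfr, the p75 co-receptor of the Nogo receptor, went from 17.7 ± 0.649 to 14.7 ± 0.437 CPM (-0.26 ± 0.13; 0.413). Rtn4, which encodes Nogo, was abundant at 114 and 110 CPM (-0.065 ± 0.094; 0.842) while its receptor gene Rtn4r was at 0 counts. Of 51 tested signal transducers, the smallest p belonged to Chn2, a Rac GTPase-activating protein of the chimaerin family (-0.53 ± 0.18; 0.139), and to Cdk5, a neuronal kinase (1.11 ± 0.40; 0.166). Without WT replicate 3, Cdk5 was called, with a log2 fold change of 2.01 (edgeR adjusted p = 0.0255). Cdc42 and Cfl1, a small GTPase and the actin-severing protein cofilin, were the most abundant per length and changed by 0.0064 ± 0.10 and 0.026 ± 0.11 (SE; edgeR adjusted p = 0.989 and 0.957). The sign of Cdc42 turned with DESeq2 and the replicate block, and those of Cdc42 and Cfl1 turned when some single libraries were left out.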

How the data were processed

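Total RNA of sorted cells from 6 libraries (3 labelled WT, 3 labelled dKO) was made into stranded total RNA libraries, per the labels' protocols. The authors deposited whole-number raw read counts per Ensembl gene, not normalized. STAR 2.7.0d, DESeq2 1.22.2 and GRCm38 are named in the submitters' processing notes; how reads were counted, with which strand setting and annotation, is not given in the sources used here. Positions, exon lengths and exon overlaps came from GENCODE M21 on GRCm38. Exon length was the union of all annotated exons of a gene, such as 25.4 kb for Slit2 and 14.99 kb for Ptprs. Every order and sum of levels per length rests on that choice.

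In edgeR 4.0.16 under R 4.3.3, filterByExpr (minimum count 10, total 15) chose the genes, TMM scaled the libraries, and a two-sided quasi-likelihood test with group as the sole term followed. P-values were adjusted over all 8444 genes tested. Each standard error was derived as |log2 fold change| over the root of the F statistic. Depth per gene is set by the 346037 to 1636581 counts outside the ribosomal RNA row, and the fit gives dKO replicate 3, the deepest, more weight than a mean of libraries does. Tested on simulated data for dKO against WT (7918 genes), the fit recovered 36.5% of the 1.5-fold and 82.5% of the 2-fold changes, and 11 of its 143 calls were false. Labels give replicate numbers but no pairing, nor do they say whether replicates share mice; p-values thus reflect only how these libraries vary, possibly for technical reasons. Replicate pairs differed by more than counting noise (chi-square per degree of freedom 1.17 to 4.19).

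Alternatives were other scalings and filters, DESeq2 1.42.0, limma-voom (limma 3.58.1), a block for the replicate number, omission of each library, and adjusted p under 0.1. The filter of at least 1 CPM in 3 libraries used total counts without TMM scaling. Fits with no filter and a library left out were added after seeing the data. The members, gene lists and tests were chosen with earlier results of these data known. The rod marker list leaves out 1 gene that is not reported here. By the naming rule, every member is accounted for, with full values for called members, the 14 with the smallest p, the 10 with the highest CPM per kilobase, and Rtn4r, Lingo1, Ptprs, Pirb, Neo1 and Dcc. From each pathway list it takes called genes, or the 2 with the smallest p, and the 2 most abundant per length. Figures were drawn with matplotlib 3.10.9.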

Additional observations from a re-analysis of the deposited data

How the results depend on the processing

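The counts of called members rested on few genes and moved with the settings. The number called higher was 2 with no low-count filter and 2 with at least 1 CPM in 3 libraries, where Efnb3 joined Slit2 (it passed the latter filter in dKO libraries alone), and 0 with DESeq2. Without 1 library it was 0 to 1. The number called lower, 0, became 1 (Epha7) with RLE size factors, with at least 1 CPM in 3 libraries, with the replicate block and at adjusted p under 0.1, and 0 to 1 without 1 library. Over all genes, 62 higher and 100 lower became 26 and 26 with DESeq2, so that 50.0% of calls were higher against 38.3%; 108 were higher at adjusted p under 0.1. Leaving out 1 library gave 29 to 71 higher and 61 to 116 lower. Pathway genes called were 1 with limma-voom (Lrp1) and 0 to 1 without 1 library. The median of the 42 members stayed negative, at -0.14 to -0.041.

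Same-numbered WT and dKO libraries showed correlations of 0.013 to 0.029 in their deviations, too low to pair them, although each library correlated best with its own number. With the replicate block, 1 member was called lower. Signs turned, at values near 0, for Ptprs (-0.0012 with RLE, -0.0013 with at least 1 CPM in 3 libraries, -0.013 with limma-voom), and for Cdc42 (-0.0024 with DESeq2, -0.0086 with the replicate block). Without 1 library, log2 fold changes ranged from -0.066 to 0.064 for Ptprs, -0.012 to 0.41 for Rgmb, -0.080 to 0.11 for Ntn4, -0.093 to 0.057 for Cdc42, -0.11 to 0.14 for Cfl1, -0.083 to 0.022 for Myh9 and -0.24 to 0.088 for Myh10. Of 514 comparisons of a gene's value under another setting, 484 kept direction and side of the threshold. Most of these genes lay far from the threshold in every setting, so that number says little about those near it. Among the latter, Slit2 was called in 11 of 14 alternatives and Epha7 in 4 of 14. Depth limits what could be seen: 27 members had too few counts to test.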
